A study of Homo sapiens with 16 samples.

Results

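Long intergenic non-protein-coding RNAs carry the gene symbol LINC followed by a number when no more specific name has been given. The 165 LINC RNAs described here come from RNA-seq of OCI-AML3 cells, an established human acute myeloid leukemia line. They were chosen by symbol, which had to be LINC followed only by digits, and selected on their mean normalized count over the 16 libraries, which had to be at least 10. They are 165 of 2286 such LINC rows and of 62700 genes in the table. Of the other LINC rows, 1147 had no read in any library and 974 had reads but a lower mean. The 16 libraries came from untreated cells (n = 4), cells treated with 0.1 µM all-trans retinoic acid (ATRA, n = 3), cells treated with 0.1 µM Am80 (tamibarotene, n = 3), and cells that received either retinoid together with a pair of inhibitors, MB3 at 100 µM and GSK-LSD1 at 0.1 µM (n = 3 each). The treated cells were collected after 3 h. GSK-LSD1 inhibits the histone demethylase LSD1 (KDM1A) and MB3 the histone acetyltransferase GCN5 (KAT2A). No library received the inhibitors without a retinoid, so every inhibitor effect below was measured in the presence of a retinoid, and all libraries come from 1 cell line.

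ATRA activates all 3 retinoic acid receptors, whereas Am80 is a synthetic retinoid with selectivity for the alpha receptor. The receptors bind DNA as heterodimers with RXR at paired copies of the half-site AGGTCA, hold corepressors in the absence of ligand and recruit coactivators, histone acetyltransferases among them, when ligand is bound. LSD1 removes methyl groups from histone H3, and GCN5 adds acetyl groups to histones at active promoters. Long intergenic RNAs are transcribed by RNA polymerase II, are usually spliced and less abundant than messenger RNAs, and often lie close to, or head to head with, protein-coding genes. For most of the RNAs named below no function is established, and they are therefore described by their level, position and response.

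Libraries held 11963898 to 33789718 gene-assigned reads, with the untreated libraries at the lower end (11963898 to 17929315) and the Am80 libraries at the upper end (19254731 to 33789718). All 6 retinoic acid receptor targets examined rose with either retinoid. DHRS3, a retinaldehyde reductase, had a mean of 27.3 normalized counts in untreated cells, 2339 with ATRA and 2425 with Am80, and the retinoic acid hydroxylase CYP26A1 had no read in untreated cells and means of 118 and 96.8. The 10 myeloid leukemia markers were all detected, with PTPRC between 5955 and 8604 and CD33 between 1254 and 1602 normalized counts over all libraries. MPO was the lowest of them, between 23.9 and 53.2. The summed level of that list lay between 45961 and 64031, and NPM1 alone had a mean of 22473. Summed levels of the T cell, erythroid and epithelial marker lists (3 genes each) were at most 2.77 in any library.

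The LINC RNAs together made up a small part of each library. They took 0.10% to 0.114% of the reads in untreated cells, 0.111% to 0.127% with ATRA, 0.0943% to 0.105% with Am80, 0.0812% to 0.0864% with ATRA and inhibitors, and 0.0720% to 0.0821% with Am80 and inhibitors. All libraries with inhibitors lay below all libraries without them. Normalized counts, which are reads divided by the size factor of the library, are used for every level below. The median LINC RNA had a mean of 34.3 normalized counts, 54 of the 165 lay between 10 and 20, and 37 reached 100.

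LINC00926 was the most abundant LINC RNA, with a mean of 4541 normalized counts, and LINC02908, LINC00205, LINC02910 and LINC00482 followed with 559, 497, 492 and 492. These 5 carried 38.0% of all normalized counts of the 165. Levels of different genes can be set side by side only per length, and per kilobase of annotated exon LINC00926 (1238 normalized counts per kilobase), LINC02169 (253), LINC00482 (224), LINC03058 (210.5) and LINC02910 (148) came first. LINC00926 lies on chromosome 15 (57300365 to 57307769, GRCh38, GENCODE release 29), 1084 bases from TCF12, a basic helix-loop-helix transcription factor gene, on the same strand. The 2 lists share LINC00926, LINC00482 and LINC02910, while LINC02169 and LINC03058 had short annotated exons of 854 and 294 bases. The lengths are those of GENCODE release 29, and the exons on which the reads were counted may differ, so the order per kilobase depends on that release.

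Positions were available for 158 of the 165 in that annotation, in which 124 were typed as lincRNA, 15 as antisense, 13 as processed transcripts and 2 as protein coding. The build and annotation used to count the reads, and whether strand was used, are not given in the sources used here. The study's methods name a strand-specific mRNA library kit, whereas the labels name a kit for DNA libraries made from cDNA. Of the 158, 41 have exons that overlap another gene on the opposite strand. Such pairs cannot be told apart in counts made without strand. LINC02908, the second in level, is one of them, with exons that overlap FUT7. Its span also overlaps in part that of ABCA2 on the other strand, whose start lies 1458 bases from its own.

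Which LINC RNAs were induced by the retinoids was asked by setting the mean of the ATRA and Am80 groups against untreated cells. A gene was called when its limma p-value, adjusted by Benjamini-Hochberg over the 14643 genes tested, was under 0.05 and the change was at least 1.5-fold. By this rule 21 of the 165 LINC RNAs (12.7%) rose and 10 (6.06%) fell, beside 6.53% and 3.21% of all genes tested. The shares exceeded those of all genes only at means under 50. From 10 to 20 normalized counts 16.7% of 54 rose and 9.26% fell, beside 8.77% and 3.82% of 1597 genes. From 20 to 50, 9 of 50 rose and 4 fell, beside 11.4% and 6.53% of 1745 genes. From 50 upward 4.92% of 61 rose and 1.64% fell, beside 5.46% and 2.61% of 11301 genes. The median change over the 165 was -0.03 on the log2 scale and -0.01 over all genes. Because the mean of 10 was taken over all libraries, a gene can pass it through its highest group. That held for 8 of the 165: LINC03015 through ATRA, LINC00886, LINC01686 and LINC02453 through Am80, and LINC01123, LINC01694, LINC01977 and LINC02361 through untreated cells. All 8 lie between 10 and 20 normalized counts, so the shares of that band include them, with 3 of its rises and 2 of its falls. A difference that involves the group through which they passed is given for them as a description, and among the other 157 the retinoids raised 18 and lowered 8. Only 1 group was left out at a time. The 2 retinoid groups, or the 2 combination groups, were not left out together. Further scarce LINC RNAs may therefore have passed through both groups on the high side of a pooled comparison. LINC00659 for the retinoids and LINC01293 for the inhibitors are examples to be read with that limit. Most LINC RNAs called higher were scarce, with only 3 of the 21 at a mean of 50 or more, and all fold changes below are on the log2(normalized count + 1) scale, which understates the change of low genes.

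**Figure D1:**
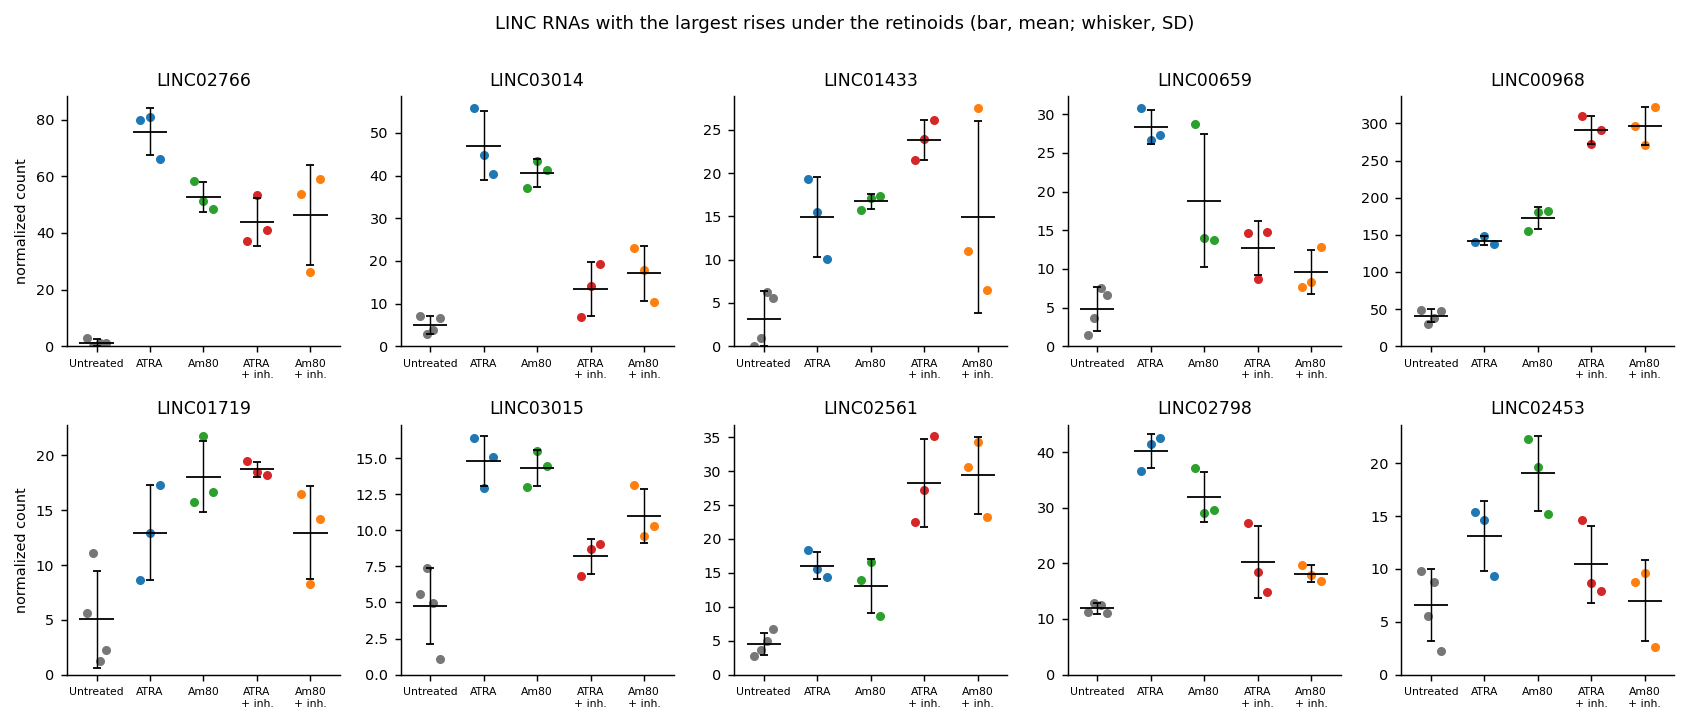
Normalized counts (y axis, linear, from 0) of the 10 LINC RNAs with the largest rises under the retinoids, in each library (points) of the 5 groups (x axis), with the group mean (bar) and SD (whisker, n = 4 for untreated cells and n = 3 elsewhere). LINC02766 lay at 0 to 2.79 in untreated cells and at 48.5 to 81.1 with a retinoid, and LINC00968 and LINC02561 rose further with the inhibitors.

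LINC02766 changed most. Its normalized counts were 2.79, 0, 1.25 and 1.11 in the 4 untreated libraries, 80.0, 81.1 and 66.3 with ATRA, and 58.5, 51.3 and 48.5 with Am80. All untreated libraries were at or under the floor of 3 reads, so the change is given as a bound: the retinoid mean was at least 18.3-fold higher than the floor of 3 reads per library (limma log2 fold change 4.96 ± 0.28 (SE), adjusted p = 9.89e-12). With ATRA and inhibitors the values were 37.1, 53.3 and 40.9, and with Am80 and inhibitors 53.7, 26.1 and 59.2. Retinoid libraries with and without inhibitors overlapped, and the inhibitor effect was -0.53 ± 0.25 (SE) on the log2 scale and was not called (limma, adjusted p = 0.0839). LINC02766 (ENSG00000229484.3) lies on chromosome 1 (12527724 to 12528420, plus strand), 39490 bases from DHRS3, the reductase gene given above. The nearest protein-coding gene is VPS13D, which encodes a lipid transfer protein, and VPS13D rose from a mean of 786 to 1666 with ATRA and 1503 with Am80 (log2 fold change for both retinoids 1.03 ± 0.09 (SE), limma, adjusted p = 1.31e-08).

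LINC03014 and LINC03015 form a pair. Their annotated starts lie 105 bases apart on opposite strands of chromosome 7, and the nearest protein-coding gene to both is FAM20C, which encodes a secretory pathway kinase. LINC03014 had 6.97, 2.77, 3.74 and 6.65 normalized counts in untreated cells, 55.9, 44.9 and 40.3 with ATRA, and 37.1, 43.5 and 41.2 with Am80, a rise of 2.95 ± 0.28 (SE) on the log2 scale (limma, adjusted p = 4.39e-08). The untreated libraries all lay below the retinoid libraries. With inhibitors it fell back to 6.83, 14.1 and 19.3 beside ATRA and to 23.0, 17.9 and 10.3 beside Am80 (log2 fold change -1.55 ± 0.25 (SE), limma, adjusted p = 2.98e-05), again without overlap. LINC03015, which reached the mean of 10 only through ATRA (9.21 without it), had a mean of 4.76 in untreated cells and of 14.8 and 14.3 with the retinoids, a difference of 1.60 ± 0.31 (SE) on the log2 scale, and its change with the inhibitors, -0.57 ± 0.28 (SE), was not called (limma, adjusted p = 0.0883). FAM20C itself rose from a mean of 1370 to 6203 with ATRA and 6023 with Am80.

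LINC00659 and LINC01433 lie on chromosome 20. LINC00659 (62774128 to 62775412, minus strand), near the neurotensin receptor gene NTSR1, had 1.39, 3.69, 7.47 and 6.65 normalized counts in untreated cells, 30.9, 26.7 and 27.4 with ATRA and 28.8, 14 and 13.7 with Am80 (log2 fold change 2.17 ± 0.33 (SE), limma, adjusted p = 2.33e-05). The inhibitors lowered it by a log2 fold change of -0.99 ± 0.29 (SE), to means of 12.7 and 9.60. Whether LINC00659 reaches the mean of 10 without both retinoid groups was not examined, so its p-value carries that limit. NTSR1 moved likewise, from a mean of 62.3 in untreated cells to 715 and 565 with ATRA and Am80 and to 299 and 266 with inhibitors. LINC01433 (4193065 to 4195943, plus strand) lies 5318 bases beyond SMOX, the spermine oxidase gene, on the same strand. Its values were 0, 0.924, 6.23 and 5.54 in untreated cells, 19.3, 15.5 and 10.1 with ATRA and 15.8, 17.1 and 17.4 with Am80 (log2 fold change 2.42 ± 0.46 (SE), limma, adjusted p = 0.000298). The groups did not overlap, and SMOX rose from a mean of 446 to 2868 and 2752. Since LINC01433 follows SMOX on the same strand, reads that run past the end of SMOX could be counted for it, and this was not tested.

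The RefSeq promoter windows of these genes (GRCh38.p14, from 250 bases before to 50 bases after the start) are shown because the receptors bind copies of AGGTCA. Capitals mark each AGGTCA, written TGACCT where it lies on the other strand, and each TATAAA box. The RefSeq starts of these 4 genes differ from the starts in the annotation used for positions. The windows are chr1:12525303-12525602 (plus strand) for LINC02766, chr20:62776807-62777106 (minus strand) for LINC00659, chr20:4192840-4193139 (plus strand) for LINC01433 and chr7:149468-149767 (plus strand) for LINC03014.
LINC02766: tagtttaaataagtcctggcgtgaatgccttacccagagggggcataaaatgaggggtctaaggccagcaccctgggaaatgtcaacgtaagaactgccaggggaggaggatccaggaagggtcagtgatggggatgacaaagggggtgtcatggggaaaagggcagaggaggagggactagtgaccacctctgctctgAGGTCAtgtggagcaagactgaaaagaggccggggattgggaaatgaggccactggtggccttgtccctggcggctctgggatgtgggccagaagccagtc
LINC00659: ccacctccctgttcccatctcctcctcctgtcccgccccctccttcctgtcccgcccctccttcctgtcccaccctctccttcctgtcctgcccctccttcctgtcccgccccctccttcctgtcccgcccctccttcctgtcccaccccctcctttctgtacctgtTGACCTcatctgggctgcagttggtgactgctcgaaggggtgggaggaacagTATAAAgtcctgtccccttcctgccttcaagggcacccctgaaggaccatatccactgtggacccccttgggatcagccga
LINC01433: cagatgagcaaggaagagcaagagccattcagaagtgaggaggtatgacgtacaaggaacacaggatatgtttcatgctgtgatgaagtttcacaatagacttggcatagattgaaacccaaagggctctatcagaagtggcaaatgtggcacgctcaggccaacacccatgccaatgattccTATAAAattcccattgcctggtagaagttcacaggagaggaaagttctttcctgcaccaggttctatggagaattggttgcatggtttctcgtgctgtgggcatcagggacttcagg
LINC03014: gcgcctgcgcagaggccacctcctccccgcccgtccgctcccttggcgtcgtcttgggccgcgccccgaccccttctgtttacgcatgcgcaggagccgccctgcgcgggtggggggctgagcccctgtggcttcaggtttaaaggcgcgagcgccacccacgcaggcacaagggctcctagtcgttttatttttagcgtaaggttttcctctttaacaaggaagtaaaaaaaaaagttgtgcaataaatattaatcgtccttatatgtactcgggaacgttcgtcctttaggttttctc

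In LINC02766 the single AGGTCA starts 51 bases before the RefSeq start. In LINC00659 the half-site lies on the opposite strand, 83 bases before the start, and a TATAAA box lies 31 bases before it. LINC01433 has a TATAAA box 67 bases before the start, and the window of LINC03014 holds neither motif. Windows were found for 109 of the 165 LINC RNAs, 135 windows in all. AGGTCA on either strand was in 17% of them, in 3 of the 18 windows of retinoid-raised LINC RNAs, and in 13.8% of all 35116 promoters of the table. Direct repeats of AGGTCA or close variants of it, with 1, 2 or 5 bases between the copies, were in 0 of the 135 windows. They were in 0.131%, 0.0399% and 0.0883% of all promoters. The share of all promoters with repeats of AGGTCA alone is not given here. A match here is a description of the letters in the window, and sites outside it were not searched.

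LINC00968 and LINC02561 rose with the retinoids and again with the inhibitors. LINC00968, on chromosome 8 and nearest to the proenkephalin gene PENK, had 48.8, 30.5, 37.4 and 47.6 normalized counts in untreated cells, 141, 148 and 138 with ATRA and 155, 181 and 182 with Am80 (log2 fold change 1.93 ± 0.11 (SE), limma, adjusted p = 1.69e-11). With inhibitors it reached 309, 273 and 291 beside ATRA and 296, 271 and 322 beside Am80, a further rise of 0.90 ± 0.10 (SE) on the log2 scale (limma, adjusted p = 2.83e-07). The 3 levels, untreated, retinoid and retinoid with inhibitors, did not overlap in any library. LINC02561, on chromosome 10 nearest to AKR1C4, had a mean of 4.53 ± 1.68 (SD, n = 4) in untreated cells, 16.1 and 13.1 with the retinoids and 28.3 and 29.4 with inhibitors, and showed the same order without overlap.

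The remaining 3 of the 10 largest rises were LINC02798, LINC01719 and LINC02453. LINC02798 rose from 11.1 to 12.9 normalized counts in untreated cells to 29 to 42.5 with a retinoid (log2 fold change 1.51 ± 0.18 (SE), limma, adjusted p = 1.21e-06) and fell with the inhibitors to 14.8 to 27.3. LINC01719, whose untreated libraries ranged from 1.25 to 11.1 and retinoid libraries from 8.68 to 21.7, and LINC02453, with 2.22 to 9.76 and 9.36 to 22.3, were called although their groups overlapped. LINC02453 reached the mean of 10 only through Am80 (9.07 without it), and it was no longer called when untreated replicate 4 and Am80 replicate 2 were both left out (limma, adjusted p = 0.0553). The other 11 retinoid-raised LINC RNAs had log2 fold changes from 0.60 to 1.21, among them LINC01270, which lies 100031 bases from CEBPB, a myeloid transcription factor gene, and LINC01686, which is divergent from RGS16, a regulator of G protein signaling.

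The 10 LINC RNAs that fell with the retinoids fell less than the largest rises. LINC01588 went from a range of 48.7 to 64.8 normalized counts in untreated cells to 21.2 to 41.5 with a retinoid (log2 fold change -1.05 ± 0.18 (SE), limma, adjusted p = 9.05e-05), and its groups did not overlap. LINC01123 and LINC01694 reached the mean of 10 only through untreated cells (7.82 and 7.51 without them), so their values are a description. LINC01123 had 15.7 to 29.9 in untreated cells and 5.18 to 12.2 with a retinoid, and LINC01694 had 16.6 to 28.6 and 6.5 to 14.7. LINC00957 fell by 0.96 on the log2 scale, from a mean of 69.9 to 34.2 and 35.9, and fell again with the inhibitors to 17.1 and 13.4 (log2 fold change -1.18 ± 0.15 (SE), limma, adjusted p = 1.62e-06). LINC00683 lies on chromosome 18, starts 120022 bases from the transcription factor gene ZNF516 in the divergent orientation and fell together with it, but its call was lost without untreated replicate 1 (limma, adjusted p = 0.0667). The call of LINC03016 was lost without any of 5 single libraries: untreated replicate 2 or 4, ATRA replicate 1 or 3, or Am80 replicate 1. It was also lost under 6 of the 11 other settings, DESeq2 (adjusted p = 0.112) and the replicate block (limma, adjusted p = 0.082) among them.

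**Figure D2:**
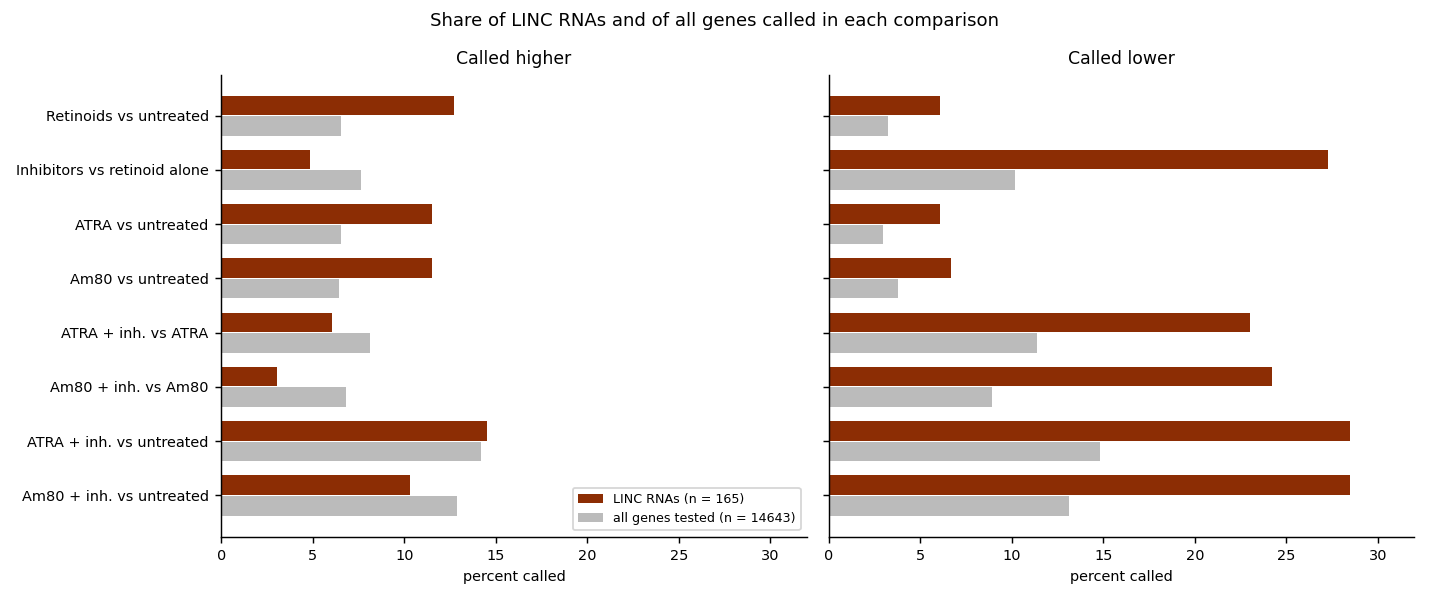
Percent of the 165 LINC RNAs (brown bars) and of all 14643 genes tested (grey bars) called higher (left) and lower (right) in 8 comparisons; the x axis is linear from 0. Between 23.0% and 28.5% of the LINC RNAs were called lower in the 5 comparisons with inhibitors, beside 8.9% to 14.8% of all genes.

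ATRA and Am80 were compared directly at the same dose and time. Alone, ATRA raised 19 and lowered 10 of the 165 (6.52% and 2.94% of all genes) and Am80 raised 19 and lowered 11 (6.41% and 3.76%); both comparisons share the untreated libraries. In Am80 against ATRA, 0 of the 165 were called (0.0273% of all genes higher, 0.0205% lower). An unadjusted limma p under 0.05 was found for 21 of the 165 and for 13.9% of all genes. On the recovered reads edgeR and DESeq2 also called 0, although DESeq2 gave no adjusted p for 126 of the 165. The retinoids cannot be said to act alike on each RNA: the 95% interval of the difference lay inside 1.5-fold in both directions for 59 of the 165. LINC00926 had the smallest adjusted p, although its difference was under the 1.5-fold limit, with 5882, 6269 and 5399 normalized counts with ATRA and 3907, 4654 and 4914 with Am80, groups that did not overlap (log2 difference -0.39, 95% interval -0.56 to -0.21, limma, adjusted p = 0.0549); it was picked here after its values were seen. For LINC02766 the difference was -0.51 (95% interval -1.27 to 0.24) and for LINC03014 -0.20 (-0.95 to 0.55).

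With the inhibitors present, the unadjusted limma p of Am80 against ATRA was under 0.05 for 20 of the 165 and for 18.1% of all genes. Again 0 of the 165 were called (0.0% of all genes in either direction), and 0 by edgeR or DESeq2 (136 without an adjusted p in DESeq2). The interval lay inside 1.5-fold for 54. This count depended on how the spread was estimated: fitting the 2 combination groups alone called 7, all lower with Am80, and leaving out untreated replicate 4 or Am80 replicate 2, which are not in the comparison but enter the spread, called 5 and 3, with LINC01694 the furthest apart. Its Am80 libraries with inhibitors were all at or under the floor of 3 reads, and its mean there was at least 2.14-fold lower than the mean of 8.04 with ATRA and inhibitors. The interaction, that is whether the inhibitor effect differed between the 2 retinoids, was called for 0 of the 165 and for 0.0% of all genes. Its unadjusted limma p was under 0.05 for 14 of the 165 and for 15.1% of all genes. By edgeR or DESeq2 0 were called (148 without an adjusted p in DESeq2). The intervals of the interaction were wide, with 25 of the 165 inside 1.5-fold.

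The inhibitor question was addressed by setting the mean of both combination groups against the mean of both retinoid groups. Here 45 of the 165 LINC RNAs (27.3%) fell and 8 (4.85%) rose, beside 10.2% and 7.61% of all genes. Without the 8 that reach the mean of 10 through 1 group, 39 of 157 fell and 8 rose. The median change of the 165 was -0.31 on the log2 scale and that of all genes -0.02. The share was above that of all genes at each level: from 10 to 20 normalized counts 33.3% of 54 LINC RNAs and 18.2% of 1597 genes were called lower, from 20 to 50 30.0% of 50 and 19.3% of 1745, and from 50 upward 19.7% of 61 and 7.70% of 11301. The band from 10 to 20 includes the 8 LINC RNAs that reach the mean of 10 through 1 group, 6 of them called lower. Its share without them is not given here. The split of the 165 moved with the scaling, to 30 lower and 12 higher after quantile normalization and to 59 lower and 7 higher after scaling to total reads, which shifted the median of all genes to -0.15. The shares of all genes called under these scalings are not given here.

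**Figure D3:**
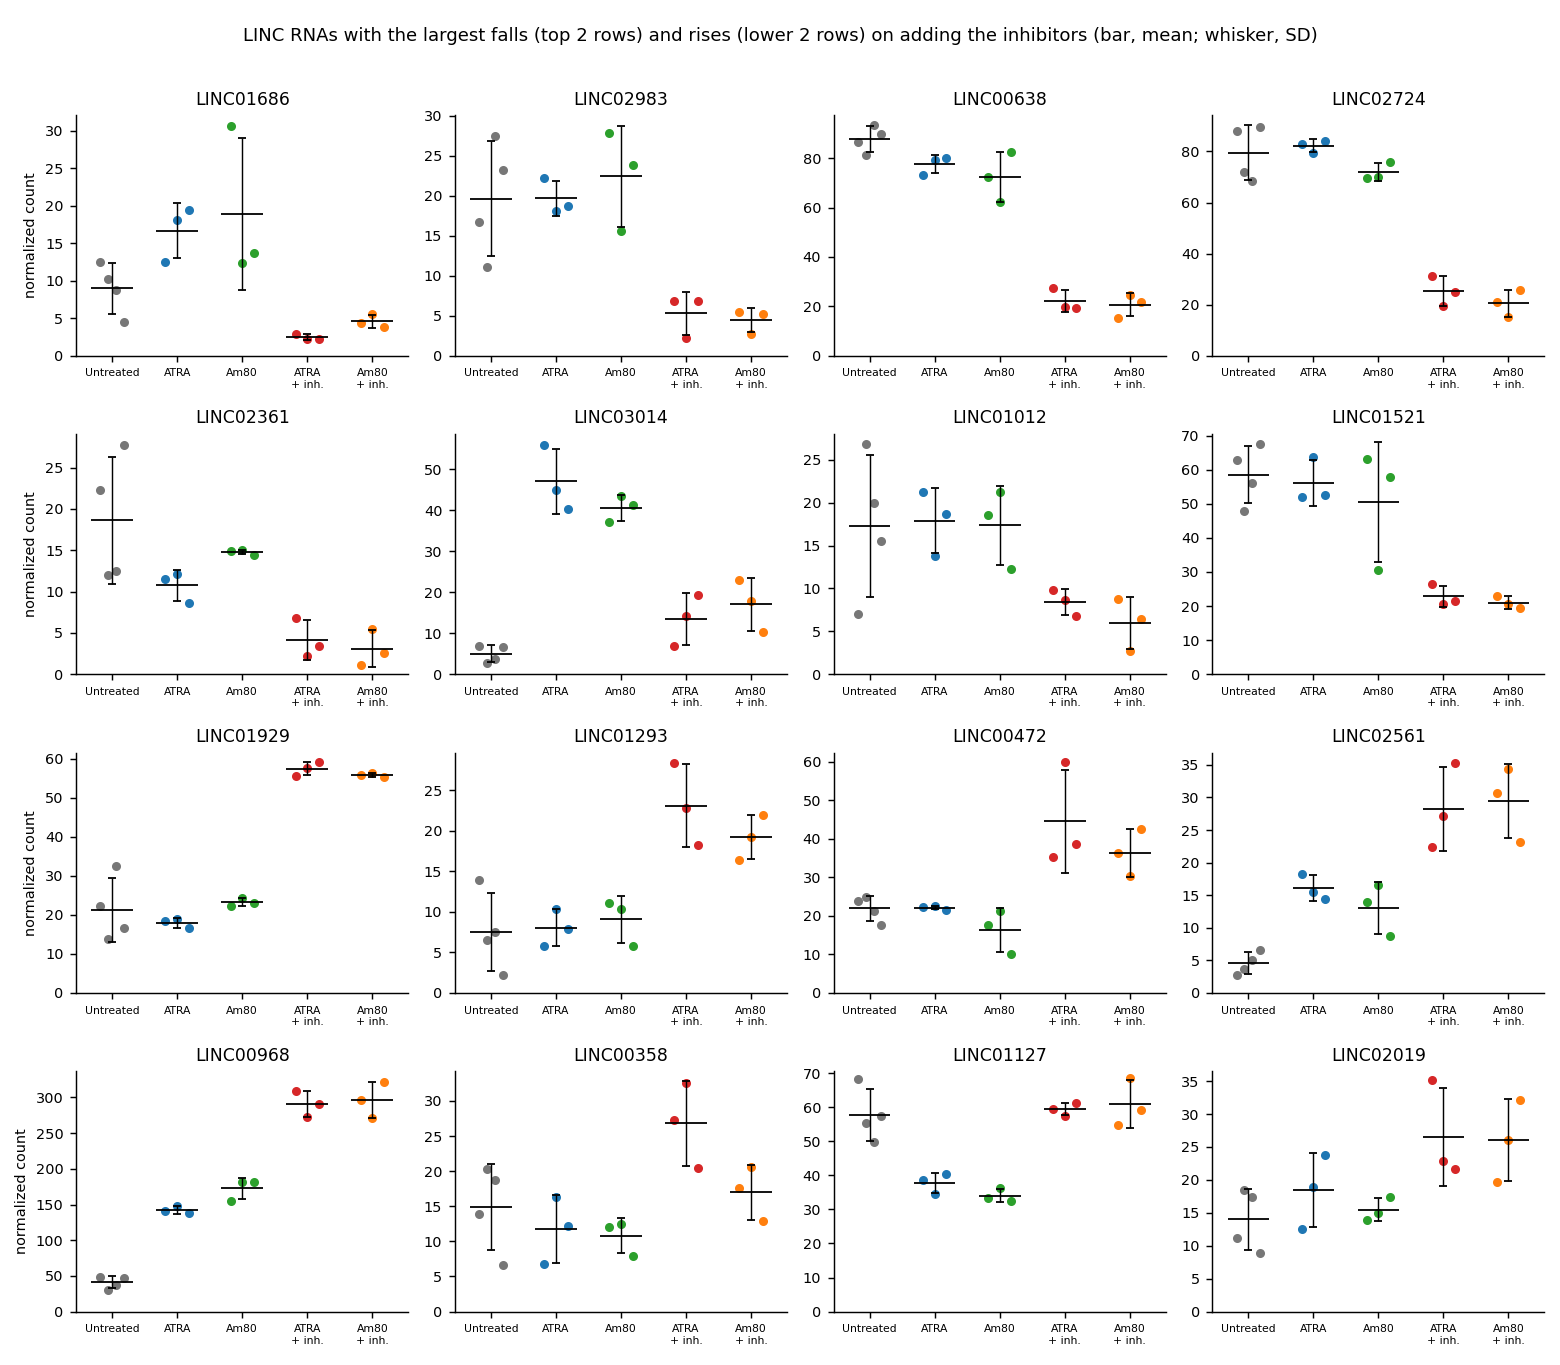
Normalized counts (y axis, linear, from 0) of the 8 LINC RNAs with the largest falls (upper 2 rows of panels) and the 8 with rises (lower 2 rows of panels) on adding the inhibitors, in each library (points) of the 5 groups (x axis), with the mean (bar) and SD (whisker). LINC00638 lay at 62.1 to 82.4 in the retinoid libraries and at 15.3 to 27.3 with inhibitors, and LINC01929 at 16.6 to 24.3 and at 55.4 to 59.1.

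Of the 8 largest falls, LINC01686 came first and LINC00638 had the smallest standard error. LINC01686 reached the mean of 10 only through Am80 (8.24 without it), a group of this comparison, so its values are a description. LINC01686 (chromosome 1, 182615254 to 182616629, plus strand) had 12.5, 18.1 and 19.4 normalized counts with ATRA and 30.6, 12.4 and 13.7 with Am80, against 2.93, 2.17 and 2.27 and 4.38, 5.5 and 3.86 with inhibitors (fitted log2 difference over both retinoids -2.04). The libraries with ATRA and inhibitors were all at or under the floor of 3 reads, so that beside ATRA it was at least 5.22-fold lower. Its level with inhibitors was below 3 of the 4 untreated libraries at their highest value of 5.5 (untreated values 12.6, 10.2, 8.72 and 4.43). RGS16, which starts 10846 bases away on the other strand, stayed at 895 and 1072 with inhibitors beside 889 and 853 without, a difference of 0.17 ± 0.09 (SE) on the log2 scale that was not called.

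LINC00638 (chromosome 14, 104821201 to 104823718) had 73.3, 79.4 and 79.9 normalized counts with ATRA and 72.4, 62.1 and 82.4 with Am80, and 27.3, 19.6 and 19.3 and 15.3, 24.7 and 21.9 with inhibitors, a change of -1.78 ± 0.13 (SE) on the log2 scale (limma, adjusted p = 6.55e-10). It had not responded to the retinoids (-0.23 ± 0.15 (SE), limma, adjusted p = 0.259, not called). ZBTB42, a zinc finger gene 16489 bases away on the same strand, fell as well, from a mean of 109 and 105 to 41.2 and 49.7. LINC02724 followed with a fall of -1.74 ± 0.14 (SE), from 69.6 to 84.3 down to 15.1 to 31.2, and its nearest coding gene RPS6KA4, which encodes a stress-activated kinase, fell by 0.65 on the log2 scale.

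LINC02983, LINC02361, LINC03014, LINC01012 and LINC01521 complete the 8. LINC02983 lies on chromosome 7 opposite to LINC03073, with starts 196 bases apart and overlapping exons, and fell from 15.5 to 27.9 normalized counts to 2.17 to 6.83 (log2 fold change -1.97 ± 0.28 (SE), limma, adjusted p = 4.38e-06), while LINC03073 fell by 0.93. LINC02361 fell from 8.64 to 15 to 1.10 to 6.83 and LINC01012, on chromosome 6, from 12.3 to 21.2 to 2.75 to 9.76. LINC01521 starts 545 bases from PATZ1, a zinc finger transcription factor gene, in the divergent orientation. It fell from 30.5 to 63.8 down to 19.3 to 26.4 (-1.21 ± 0.16 (SE), limma, adjusted p = 2.22e-06), and PATZ1 from a mean of 1018 and 982 to 459 and 427 (-1.17 ± 0.07 (SE)).

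The falls included abundant LINC RNAs. LINC00482 (chromosome 17, 81303771 to 81309248, minus strand), among the first 5 both by level and per kilobase, had 608, 713 and 585 normalized counts with ATRA and 477, 491 and 579 with Am80, and 305, 256 and 301 and 255, 256 and 281 with inhibitors (log2 fold change -1.05 ± 0.07 (SE), limma, adjusted p = 1.71e-10). LINC00205 fell from 548 to 613 to 310 to 402 and LINC02908 from 571 to 772 to 321 to 400. FUT7, the fucosyltransferase gene whose exons overlap LINC02908 on the other strand, changed by -0.05 on the log2 scale in the same comparison and was not called. LINC02910 changed by -0.54 and LINC00926 by -0.36 on the log2 scale, both under the 1.5-fold limit and so not called. LINC02169 (-0.41) and LINC03058 (-0.02) were not called either.

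In all 8 LINC RNAs rose with the inhibitors, LINC01929 most. It had 22.3, 13.9, 32.4 and 16.6 normalized counts in untreated cells, 18.3, 19 and 16.6 with ATRA and 22.3, 24.3 and 23.1 with Am80, and 55.6, 57.6 and 59.1 and 55.9, 56.4 and 55.4 with inhibitors (log2 fold change 1.43 ± 0.16 (SE), limma, adjusted p = 3.31e-07). No library without inhibitors reached the lowest library with them. The retinoids left it at 0.01 ± 0.18 (SE) on the log2 scale. LINC01929 (chromosome 18, 55105904 to 55124306, minus strand) lies 98025 bases from TCF4, a helix-loop-helix transcription factor gene that changed by 0.25 and was not called. LINC01293 rose from 5.78 to 11.1 to 16.4 to 28.3, LINC00472 from 10.1 to 22.4 to 30.2 to 59.8, and the coding gene nearest to LINC00472, OGFRL1, rose by 0.87 ± 0.07 (SE).

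LINC01127, which lies 4677 bases from IL1R2, an interleukin 1 decoy receptor gene with group means of at most 0.362 here, moved in opposite directions in the 2 main comparisons, which share the retinoid libraries. It had 49.8 to 68.3 normalized counts in untreated cells, 32.5 to 40.3 with a retinoid (log2 fold change -0.67 ± 0.12 (SE), limma, adjusted p = 0.000264) and 54.8 to 68.7 with inhibitors (0.73 ± 0.11 (SE), limma, adjusted p = 1.25e-05). Its combination groups differed from untreated cells by 0.05 and 0.08 and were not called. LINC00358 and LINC02019 were called with overlapping groups, and the call of LINC02019 (0.60 ± 0.22 (SE)) was lost without any of 4 single libraries: ATRA, Am80 or ATRA with inhibitors replicate 1, or Am80 with inhibitors replicate 3.

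The promoter windows of an RNA lowered by the inhibitors, LINC00482 (chr17:81309199-81309498, minus strand), and of one raised by them, LINC01929 (chr18:55124257-55124556, minus strand), are shown for their base composition, again with AGGTCA in capitals.
LINC00482: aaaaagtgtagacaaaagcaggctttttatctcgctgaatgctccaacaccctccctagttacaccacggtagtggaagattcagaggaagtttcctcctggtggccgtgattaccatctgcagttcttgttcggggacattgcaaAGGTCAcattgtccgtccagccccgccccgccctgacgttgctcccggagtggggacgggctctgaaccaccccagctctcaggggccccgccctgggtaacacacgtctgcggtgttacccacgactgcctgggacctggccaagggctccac
LINC01929: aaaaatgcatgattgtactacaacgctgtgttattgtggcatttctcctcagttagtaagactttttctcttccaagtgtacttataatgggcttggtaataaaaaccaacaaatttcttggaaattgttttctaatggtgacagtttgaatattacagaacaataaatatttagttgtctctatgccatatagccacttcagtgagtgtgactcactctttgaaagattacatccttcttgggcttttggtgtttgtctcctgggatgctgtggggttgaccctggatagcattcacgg

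The window of LINC00482 has 58.3% G and C and 14 CpG dinucleotides, with an AGGTCA 104 bases before the start. That of LINC01929 has 37.7% G and C and 2 CpG dinucleotides and neither motif. Over all windows the median was 14 CpG dinucleotides in the 43 windows of inhibitor-lowered LINC RNAs, 3.5 in the 4 windows of inhibitor-raised ones, 4 in the 18 of retinoid-raised ones, 11 in all 135 and 14 in all promoters of the table. These medians were not tested.

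**Figure D4:**
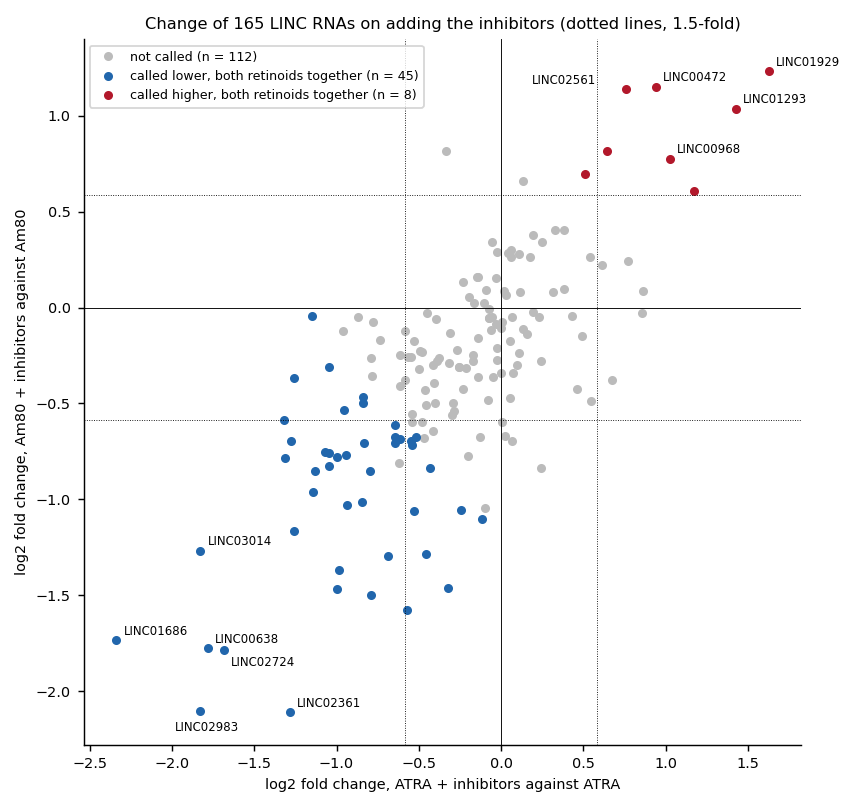
Log2 fold change of the 165 LINC RNAs on adding the inhibitors to ATRA (x axis) and to Am80 (y axis), each point 1 RNA, colored by the call over both retinoids (45 lower, 8 higher, 112 not called); dotted lines mark 1.5-fold. LINC01686, LINC02983, LINC00638 and LINC02724 lie at the lower left and LINC01929 at the upper right.

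The inhibitor effect was measured beside each retinoid in libraries that the 2 comparisons do not share. Beside ATRA, 38 LINC RNAs fell and 10 rose (11.4% and 8.15% of all genes), and beside Am80 40 fell and 5 rose (8.9% and 6.81% of all genes). The 2 lists of falls had 22 RNAs in common, which is 57.9% of the ATRA list and 55.0% of the Am80 list, and all 5 that rose beside Am80 also rose beside ATRA, 50% of that list. The overlap of the matching lists over all genes is not given here. LINC00638 changed by -1.78 beside either retinoid, LINC02724 by -1.69 and -1.79, LINC01929 by 1.63 and 1.23, and LINC03014 by -1.83 and -1.27. Beside Am80 the split was 26 lower and 8 higher after quantile normalization. The matching shares of all genes are not given here.

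Against untreated cells, ATRA with inhibitors raised 24 and lowered 47 of the 165 (14.2% and 14.8% of all genes) and Am80 with inhibitors raised 17 and lowered 47 (12.9% and 13.1%). After scaling to total reads the first split was 16 raised and 59 lowered. The shares of all genes under that scaling are not given here. LINC02766 stood at means of 43.8 and 46.4 normalized counts beside 1.29 in untreated cells. LINC00968 was 2.82 and 2.84 above untreated cells on the log2 scale and LINC02561 2.43 and 2.49. LINC03014 remained 1.22 and 1.59 above. LINC02798, at 0.68 and 0.57, was called with ATRA and inhibitors only, and the difference between the combinations was not called. At the other end LINC01694, whose values here are a description, had means of 22.3 in untreated cells and of 8.04 and 2.11 with the combinations, and LINC00957 lay at -1.98 and -2.30 and LINC00638 at -1.96 and -2.06. In all, 102 of the 165 (61.8%, beside 41.4% of all genes) were called in at least 1 of the 8 comparisons with untreated cells or with the retinoid alone, and 63 in none of them. These shares are not matched for level. Scarce genes of any kind were called lower with the inhibitors more often, 18.2% of all genes from 10 to 20 normalized counts and 7.70% from 50 upward. The 102 were also counted over all 165, without leaving out any LINC RNA.

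**Figure D5:**
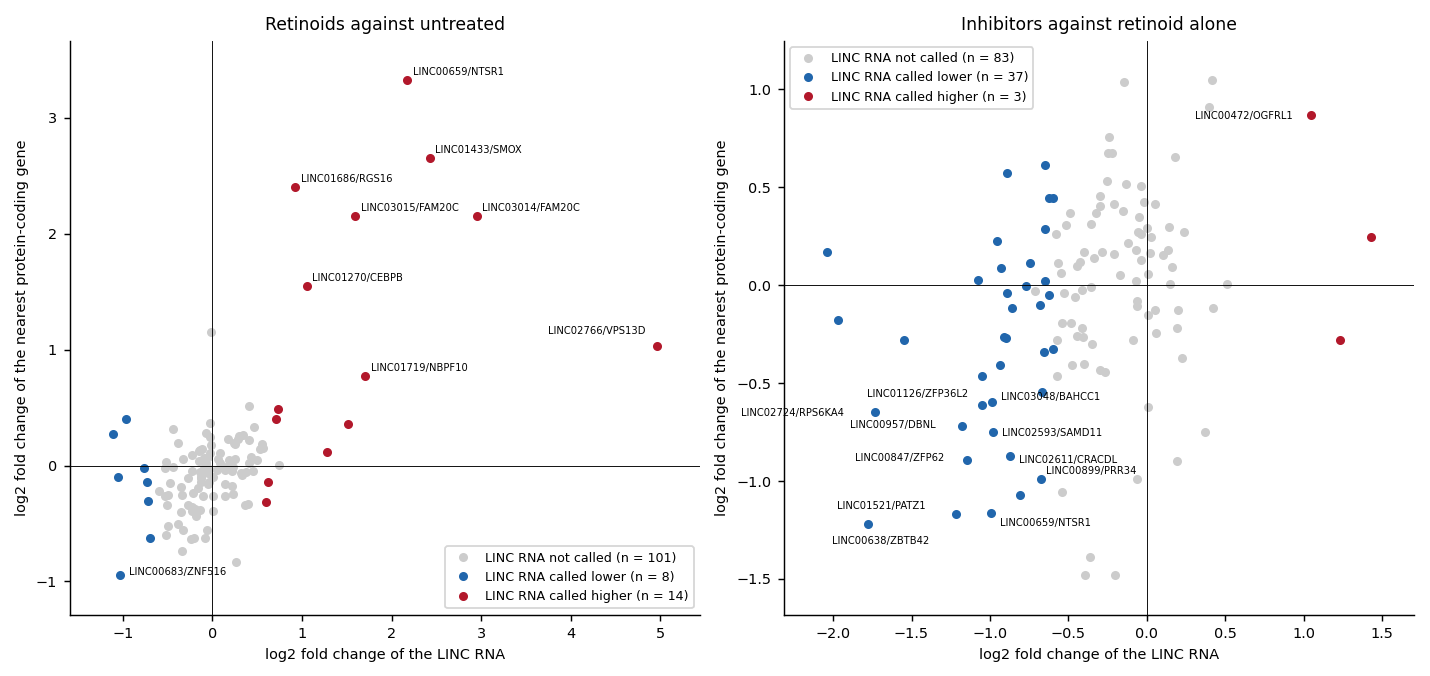
Log2 fold change of each LINC RNA (x axis) and of its nearest protein-coding gene (y axis) for the retinoids (left) and the inhibitors (right), for pairs in which both were tested, colored by the call of the LINC RNA; points are named where both genes were called in the same direction, except 1 in the right panel. In the left panel NTSR1, SMOX, RGS16, FAM20C and CEBPB lie above 1.5 with a raised LINC RNA.

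Neighbouring genes were then examined. Of the 21 retinoid-raised LINC RNAs, 14 had a nearest protein-coding gene that was tested, 13 genes in all since FAM20C is shared. Of these 13, 7 (53.8%) were called higher and 0 lower, beside 6.53% and 3.21% of all genes: VPS13D, NBPF10, RGS16, FAM20C, SMOX, CEBPB and NTSR1. RGS16 enters only through LINC01686, which reached the mean of 10 only through Am80, a group of this comparison. NTSR1 enters through LINC00659, for which leaving out both retinoid groups was not examined. The share is therefore a description, and a count without such LINC RNAs is not given here. The largest were NTSR1 (3.32 ± 0.09 (SE) on the log2 scale), SMOX (2.65 ± 0.09), RGS16 (2.40 ± 0.10) and FAM20C (2.15 ± 0.08). Next to the 101 LINC RNAs that were not called and had a tested neighbour lay 95 genes, of which 1 was called higher and 6 lower. Near the 10 retinoid-lowered LINC RNAs, 1 of 8 tested genes fell, ZNF516.

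For the inhibitors, 12 of the 37 tested neighbours of lowered LINC RNAs fell (32.4%) and 1 rose, beside 10.2% and 7.61% of all genes and 7 and 6 of the 80 neighbours of LINC RNAs that were not called (8.75% and 7.5%). ZBTB42, PATZ1 and NTSR1 were the most lowered, by 1.22, 1.17 and 1.16 on the log2 scale. These counts keep the LINC RNAs that reached the mean of 10 through 1 group, LINC01686 among them. Neither set of neighbours was tested against the others. Where a LINC RNA lies downstream of its neighbour on the same strand, as LINC01433 does, or overlaps it, reads of one could be counted for the other.

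In 10 cases a LINC RNA starts within 1000 bases of a protein-coding gene that is transcribed away from it. On adding the inhibitors 6 of these 10 fell (27.3% of all 165 and 10.2% of all genes did), LINC01521, LINC01126, LINC02918, LINC00205, LINC01547 and LINC01560. The coding partner fell in 2 of the 6, PATZ1 with LINC01521 and ZFP36L2, an mRNA decay factor gene, with LINC01126. POFUT2, which starts 152 bases from LINC00205, was not called, and ZNF41, which starts 625 bases from LINC01560, rose by 0.61 ± 0.06 (SE) while LINC01560 fell by 0.65 on the log2 scale. The 10 pairs thus included both like and opposite changes.

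At the threshold itself, the 3 LINC RNAs just inside a mean of 10 were LINC00886 (10.2), LINC01686 (10.2) and LINC03015 (10.3), and the 3 just outside were LINC01503 (9.79), LINC02202 (9.58) and LINC01473 (9.50). LINC02202 had means of 6.62 in untreated cells, 13.4 with ATRA and 13.5 with Am80, and LINC01503 of 14.6 with ATRA and 6.06 with ATRA and inhibitors. These values are given without a test.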

How the data were processed

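RNA-seq of OCI-AML3 cells was analysed from the table the authors deposited, whose values are normalized counts, a signal in which reads per gene were divided by a DESeq2 size factor. The submitters' processing notes name FastQC, cutadapt, STAR, featureCounts and DESeq2. The genome build, annotation and strand setting are not given in the sources used here. Whole reads were recovered in every library (all values whole within 0.001), and gave the depths.

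Groups follow the sample labels, and doses and time the study's methods. Nothing says that the replicates were separate cultures, so p-values measure only the spread between these libraries, which may be technical. limma 3.58.1 (R 4.3.3) was fitted to log2(normalized count + 1) of the 14643 genes whose mean over all 16 libraries reached 10, with 1 coefficient per group and a trended variance, for 11 comparisons. The Benjamini-Hochberg adjustment was made per comparison, and a call needed an adjusted p under 0.05 and a change of at least 1.5-fold. On simulated data 200 genes among 14643 were changed 2-fold between untreated and all treated libraries. In the retinoid comparison 88% were recovered and 6 others called. The changed genes were drawn from all levels, so 88% is not the recovery for scarce LINC RNAs.

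The alternatives were edgeR 4.0.16 (quasi-likelihood test, TMM) and DESeq2 1.42.0 on the recovered reads, other pseudocounts, no filter, quantile normalization, fits of the compared groups alone, a replicate block, no limit on the fold change and leaving out each library. Scaling to total reads, thinning to the shallowest library, and leaving out untreated replicate 4 and Am80 replicate 2 together were chosen after seeing the data. Positions come from GENCODE release 29 (GRCh38) and promoters from RefSeq (GRCh38.p14), with Python 3.11.15. Intervals are 95% intervals, and the floor of 3 reads per library covers counting error only.

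The LINC RNAs, lists and tests were chosen with earlier results of these data known. Named are the 10 largest rises and 6 largest falls with the retinoids, the 8 largest each way with the inhibitors, the 5 highest by level and per kilobase, those at the threshold, and pairs and neighbours. Symbols on a second row of the table (7 of the 165) were kept by gene identifier. The values of 1 neighbouring gene and of 1 marker list are not reported here.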

Additional observations from a re-analysis of the deposited data

Results flagged for a closer look

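LINC00926 in untreated cells had 1 library, replicate 4, at 4190 normalized counts, apart from 4478, 4499 and 4462 in the others. Its gap over the range of the group passed Dixon's critical value for 4 samples. It was the 1 flag among 36 named LINC RNAs tested in the untreated group, where chance flags about 1 in 20.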

How the results depend on the processing

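Over 864 alternative values of the named LINC RNAs none reversed, 842 kept their call and 22 lost it, most of them for LINC03016 and LINC02019. The 32 results behind these values were picked as the largest calls of the same data. Some of the fits without 1 library left out a library that is not in the comparison. The count of kept calls is therefore no independent measure of stability. LINC01123 lost its retinoid call when reads were thinned (limma, adjusted p = 0.0511). Without the limit on the fold change, 56 LINC RNAs passed for the retinoids and 84 for the inhibitors. The shares of all genes without that limit are not given here. Am80 against ATRA gave 1 call with the replicate block (LINC02604) and 1 with untreated replicate 4 and Am80 replicate 2 left out together (LINC00342). With inhibitors present, Am80 against ATRA gave 7 calls in the fit of the compared groups alone, 5 with the replicate block and 6 with those libraries left out together, and the cause was not tested.

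Leaving out 1 library at a time gave 28 to 33 calls for the retinoids, 46 to 54 for the inhibitors, 22 to 31 for ATRA, 27 to 30 for Am80, 34 to 50 for inhibitors beside ATRA, 33 to 50 beside Am80, 63 to 76 and 61 to 67 for the combinations against untreated cells, 0 to 1 for Am80 against ATRA (LINC02604, without untreated replicate 4), 0 to 5 for the same with inhibitors, and 0 for the interaction. Whether same-numbered replicates belong together could not be settled. Of 30 same-numbered pairs 4 had deviations correlated over 0.1 (range -0.112 to 0.187), but differently numbered pairs were not examined. The replicate block gave 30 calls for the retinoids and 54 for the inhibitors. For the 3 LINC RNAs with a group at or under the floor of 3 reads (LINC02766, LINC01694 and LINC01686), depth allows only a bound on the change.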
